A study of Mus musculus with 12 samples.

Results

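The comparison described here sets lung endothelial cells of newborn mice with an inducible endothelial deletion of the kinase genes Lats1 and Lats2 against those of wild-type mice. It uses 8 of the 12 libraries of the series, chosen by their titles: 4 libraries named L12-ECKO and 4 named WT. The cells were isolated by flow sorting from C57BL/6J mice at postnatal day 5. L12-ECKO mice carried floxed Lats1 and Lats2 alleles (Lats1f/f Lats2 f/f) and VE-cadherin-CreERT2, an inducible Cre recombinase under an endothelial promoter, which directs the deletion to endothelium. The WT mice are labelled wild type, and whether they carried the Cre transgene or received its inducer is not stated in the labels. The remaining 4 libraries, named L12YT-ECKO, had the same driver and floxed alleles plus floxed Yap and TAZ. They entered the statistical fit and appear below only as a reference level.

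LATS1 and LATS2 are the last kinases of the Hippo pathway. They phosphorylate the transcriptional co-activators YAP and TAZ, which then stay in the cytoplasm or are degraded. Without that brake YAP and TAZ enter the nucleus, bind DNA through TEAD transcription factors and raise genes such as Ctgf and Cyr61. In lung endothelium the 2 main capillary cell types are aerocytes, which line the gas exchange surface, and general capillary cells, and arterial cells form a separate population.

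Expression is given as the authors' normalized log2 value per gene, so a difference of 1 is a doubling. Gene positions are those of GENCODE M21 on the mouse build mm10. In all sentences that list 4 values, the order is replicate 1 to replicate 4. The labels do not state that replicate libraries derive from different mice. The p-values therefore measure only the spread between libraries, part of which may be technical.

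The libraries of the 2 groups were not alike in every technical respect. WT libraries held 11083 to 11260 genes above 0, whereas L12-ECKO libraries held 12651, 12596, 9836 and 13060, and the depth behind these values is unknown. L12-ECKO replicates 2, 3 and 4 share a displacement of 32 table rows that no WT library has, and by Xist and Ddx3y they came from females, as did WT replicate 4. Within the libraries without displaced rows, the comparison therefore rests on L12-ECKO replicate 1 alone. That library was also rich in neutrophil transcripts. The summed level of 15 neutrophil genes reached 16.52 on the log2 scale in it, against 8.18, 7.42 and 6.88 in the other L12-ECKO libraries and 6.74 to 11.79 in WT. 13 of the 15 lay above a value of 5 in that library, 1 to 3 in the other L12-ECKO libraries and 1 to 6 in WT. S100a8, a neutrophil calcium-binding protein gene, read 15.20 there, and Mmp9 and Chil3 read 8.503 and 9.19 where all 4 WT libraries were listed at 0.

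Endothelial identity was clear in both groups. At least 25 of 26 pan-endothelial genes lay above a value of 5 in every library. Their summed level was 18.66 to 18.69 in WT and 18.53 to 18.59 in L12-ECKO, without overlap and lower in L12-ECKO. Egfl7, at the top of the normalized scale with 17.72 in every library, is a large fixed share of that sum. The mean log2 value over the 26 genes overlapped between the groups, with 12.21 to 12.35 in WT and 12.10 to 12.23 in L12-ECKO. Smooth muscle and pericyte genes summed to 9.89 to 11.07 in WT and 8.69 to 9.43 in L12-ECKO, with no overlap, and 7 to 10 of the 14 genes lay above 5 in WT and 5 to 7 in L12-ECKO. Alveolar epithelial genes summed to 11.29 to 13.13 and 10.87 to 12.42, with 10 to 11 and 7 to 12 of 16 genes above 5. Red cell genes summed to 15.20 to 17.77 and 14.80 to 16.90. In that sum Hba-a1 and Hba-a2, Hbb-bs and Hbb-b1, and Hbb-bt and Hbb-b2 each count, though each pair read alike in every library. Liver genes summed to 8.54 to 10.01 and 10.05 to 12.68. The highest liver sum was that of L12-ECKO replicate 1, and it was nearly all Hp (12.56), a gene that neutrophils also express, with Alb at 1.03 and 10 of the 15 genes at 0. Fibroblast genes summed to 13.83 to 14.56 and 14.28 to 15.11, a sum made up mostly of the elastin gene Eln. Of 12 tested fibroblast markers 9 were lower in L12-ECKO and 3 higher, with a median difference of -0.90, and this median turned to 0.29 with the displaced rows as a covariate. Sums were 10.70 to 12.27 and 8.58 to 11.34 for airway genes, 7.13 to 8.80 and 7.47 to 10.57 for macrophage and monocyte genes and 7.78 to 8.81 and 5.57 to 8.33 for platelet genes. Lymphocyte and mesothelial genes stayed near the floor of the scale, with summed levels of at most 6.98. In these bulk libraries fewer cells of a type and less RNA per cell cannot be told apart.

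**Figure D1:**
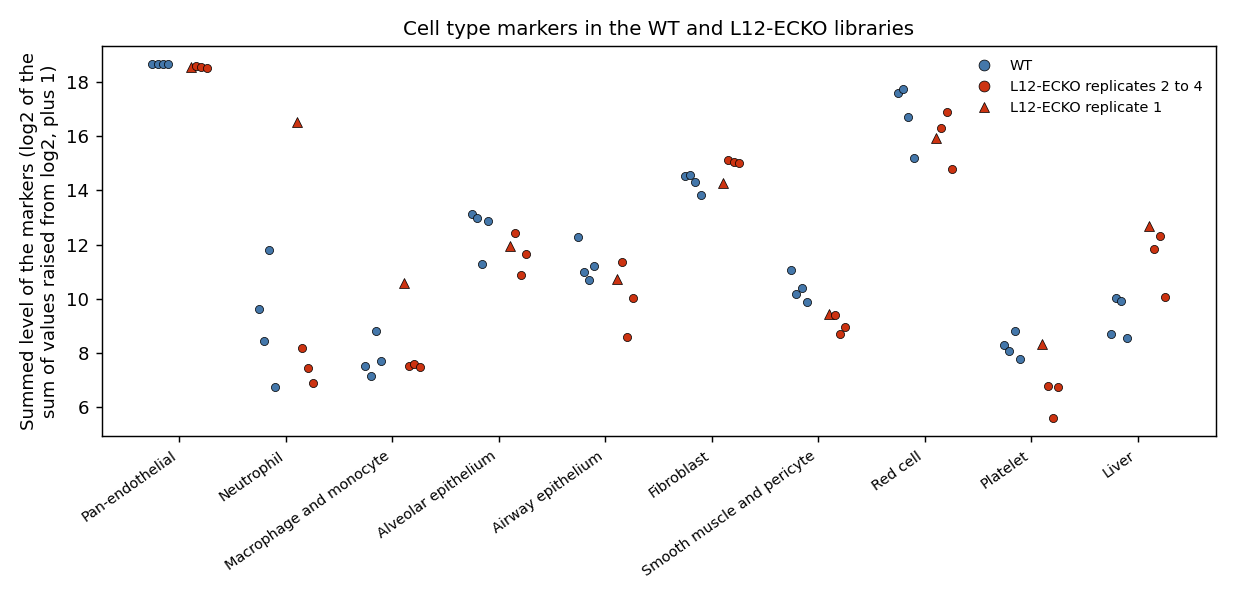
Summed level (y axis, log2) of 10 cell type marker lists (x axis) in the 4 WT and 4 L12-ECKO libraries, 1 point per library, with L12-ECKO replicate 1 as a triangle. The neutrophil level of L12-ECKO replicate 1, 16.52, stands above the WT range of 6.74 to 11.79.

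The targeted genes came first. Lats2 (chromosome 14, 57689662 to 57758388, minus strand) read 8.42, 9.22, 9.34 and 8.76 in WT and 9.72, 9.71, 10.33 and 9.97 in L12-ECKO. All 4 L12-ECKO values lay above all 4 WT values, and the difference of 0.998 (SE 0.363) did not pass the test (limma adjusted p = 0.26). Lats1 (chromosome 10, 7681214 to 7716460, plus strand) read 6.99, 5.32, 5.50 and 7.45 in WT and 7.40, 1.28, 0 and 5.78 in L12-ECKO, with overlapping groups. The library kit reads a short stretch near the 3′ end of each transcript, and which exons were floxed is not stated in the labels. Reads that fall beyond the removed exons would not check the deletion, and whether these do is not known here, so the loss of both genes rests on the labels. Yap1, the gene of YAP, had means of 9.79 ± 0.24 in WT against 9.97 ± 0.53 in L12-ECKO (± SD, n = 4 libraries each), and the means of Wwtr1, the gene of TAZ, were 11.81 ± 0.19 in WT against 11.18 ± 0.71 in L12-ECKO. Neither passed the test (limma adjusted p = 0.891 and 0.474).

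Across 11634 genes tested, 56 (0.481%) were called different between L12-ECKO and WT at a limma adjusted p under 0.05. 34 (0.292%) were higher in L12-ECKO and 22 (0.189%) were lower. All are named here except 1 of the higher genes. The called higher genes had a median difference of 1.91 and included 14 above 2, whereas the called lower genes had a median of -1.37 and only Clic5 fell by more than 2. The median WT level was 12.82 for the lower genes, 10.01 for the higher genes and 7.52 for all genes tested. The calls use these same WT values, so the WT levels of called genes are not independent of the calls. Why these levels differ was not tested. The median difference over all genes tested was -0.0216. With TMM scaling in place of the deposited scale, 33 genes were higher and 9 lower, so the balance of directions depends on scaling.

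**Figure D2:**
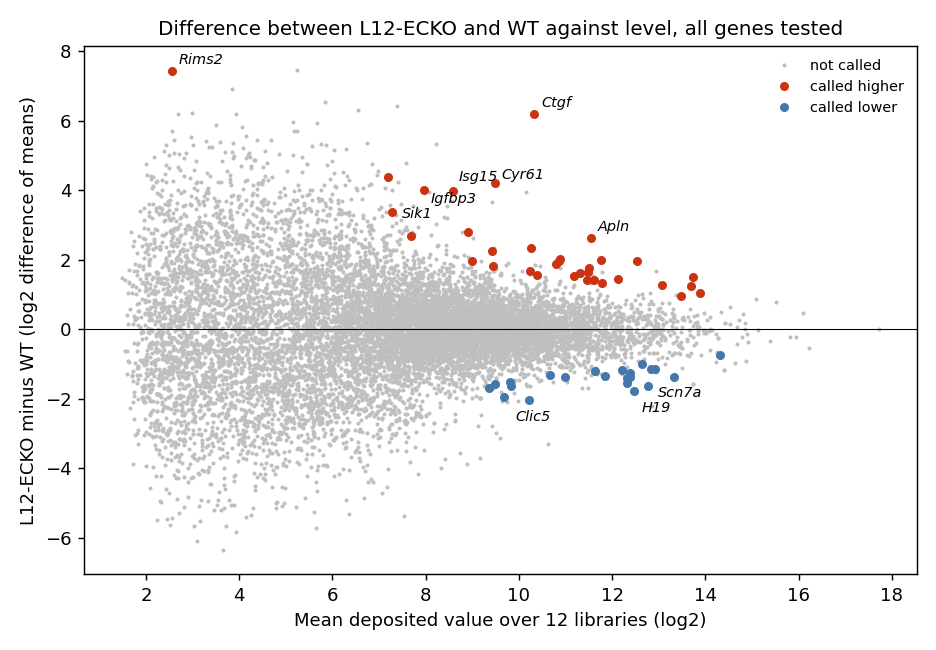
Difference between the L12-ECKO and WT means (y axis, log2) against the mean deposited value over 12 libraries (x axis, log2) for 11634 genes. The 34 genes called higher (red) reach 7.44 for Rims2 and 6.18 for Ctgf, and the 22 called lower (blue) reach -2.03.

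For each of the 56 called genes the 4 L12-ECKO values lay entirely outside the 4 WT values. Such separation was seen in 345 genes (2.97%) upward and 391 (3.36%) downward among all genes tested. L12-ECKO replicate 1, the only one without displaced rows, thus lay outside the WT range for all 56. The genes were called on these same values, so the separation is no further support for them. With the displaced rows as a covariate, 11 of the 56 were still called. Without L12-ECKO replicate 1 each called gene retained at least 80.8% of its difference. A gene carried by that library alone would spread too widely within L12-ECKO to be called. This share therefore follows largely from the calls and does not show them free of that library. Among all tested genes that differed by more than 1, 264 of 4309 lost over 0.5 of the difference without that library. Refitted without it, 22 of the 56 genes were still called, 14 higher and 8 lower, and the other 34 had adjusted p-values up to 0.139.

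The matricellular genes Ctgf and Cyr61 were far higher in every L12-ECKO library than in any WT library. Both encode secreted proteins that bind integrins and matrix, and both are standard readouts of YAP and TAZ. Ctgf (chromosome 10, 24595442 to 24598683, plus strand) read 5.84, 7.68, 9.08 and 7.89 in WT and 14.44, 12.71, 13.33 and 14.74 in L12-ECKO. The lowest L12-ECKO value, in replicate 2, was far above the highest WT value, in replicate 3. The difference of 6.18 (SE 0.617, limma adjusted p = 0.000378) corresponds to 72.5-fold, and L12-ECKO replicate 1 alone differed from the WT mean by 6.81. Cyr61 (chromosome 3, 145646976 to 145649981, minus strand) read 7.48, 7.14, 8.62 and 8.07 in WT and 13.13, 11.14, 11.22 and 12.71 in L12-ECKO. Replicates 1 and 4 were the highest for both genes. Cyr61 was 18.6-fold higher (log2 difference 4.22, SE 0.507, limma adjusted p = 0.000378). Ctgf read 9.48, 8.70, 10.16 and 9.96 and Cyr61 7.59, 8.32, 9.51 and 8.88 in L12YT-ECKO, so the 4 L12-ECKO libraries were the highest of the 12 for both.

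Crim1 (chromosome 17, 78200248 to 78376592, plus strand), which encodes a membrane protein that binds bone morphogenetic proteins, rose with little scatter. It read 9.73, 10.12, 10.01 and 10.40 in WT and 12.50, 11.81, 11.91 and 12.07 in L12-ECKO, a 4.03-fold difference (log2 2.01, SE 0.274, limma adjusted p = 0.00168). The groups lay well apart. Igfbp3 (chromosome 11, 7206086 to 7213923, minus strand), which encodes a secreted binding protein of insulin-like growth factors, was more variable. Its values were 5.31, 5.18, 6.74 and 7.51 in WT and 12.35, 8.22, 9.90 and 10.24 in L12-ECKO, where replicate 1 was the highest and replicate 2 lay nearest to the WT libraries. Its difference was 3.99 (SE 0.756, limma adjusted p = 0.0268), and 3.27 over replicates 2 to 4. Tgfb2 (chromosome 1, 186622792 to 186705989, minus strand), the gene of the cytokine TGF-β2, read 8.202, 8.49, 8.68 and 8.06 in WT and 10.36, 10.34, 9.74 and 10.84 in L12-ECKO, a difference of 1.96 (limma adjusted p = 0.0327).

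These 5 genes belong to a list of YAP and TAZ targets compiled from general knowledge, of which 18 were tested. 16 of the 18 were higher in L12-ECKO, against 49% of all genes, and 5 were called higher, against 0.292% of all genes. The median difference was 1.37. The median over the list lay 1.37, 0.97, 1.58 and 1.87 above the WT means in the 4 L12-ECKO libraries, so none of these libraries stood at the WT level. Ankrd1, another widely used YAP target, did not pass the test. It read 4.08, 0, 0 and 4.53 in WT and 0, 6.49, 0 and 3.04 in L12-ECKO, values at the bottom of the scale with full overlap (limma adjusted p = 0.973). Of 25 tested core members and partners of the Hippo pathway, 14 were higher, 11 lower and none was called (limma, 6 at an unadjusted p under 0.05), with a median of 0.18. Over all genes tested, an unadjusted p under 0.05 was reached by 6.31% upward and 5.91% downward. The most abundant Hippo members were Map4k4, an upstream kinase gene, with 14.82, 14.60, 15.20 and 15.003 in WT and 15.003, 14.74, 14.33 and 14.60 in L12-ECKO, and Amotl1, an angiomotin family gene, with 11.69, 12.37, 12.33 and 12.38 in WT against 12.21, 12.49, 12.41 and 13.14 in L12-ECKO. Both overlapped between the groups.

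TEAD factors recognise the core letters GGAATG, or CATTCC on the other strand. Promoter sequences are shown here for Cyr61 and Crim1 because both genes were called and both hold this core in the 250 bases before their annotated start. Among the other called genes of the YAP and TAZ list, the windows of Igfbp3 and Tgfb2 held 0 matches, and Ctgf had no entry in the promoter table. The window of Apln, described below, also held 0 matches. The sequences come from RefSeq on GRCm38.p6, 5′ to 3′ on the gene's strand, with the core in capitals. The Cyr61 window is chr3:145649986-145650235, minus strand, and its match begins 103 bases before the start. The Crim1 window is chr17:78199998-78200247, plus strand, with a match that begins 79 bases before the start.
Cyr61: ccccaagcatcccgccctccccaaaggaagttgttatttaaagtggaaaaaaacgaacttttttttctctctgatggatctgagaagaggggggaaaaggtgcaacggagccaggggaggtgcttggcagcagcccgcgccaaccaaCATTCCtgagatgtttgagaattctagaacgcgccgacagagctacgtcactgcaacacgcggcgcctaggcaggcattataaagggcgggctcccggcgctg
Crim1: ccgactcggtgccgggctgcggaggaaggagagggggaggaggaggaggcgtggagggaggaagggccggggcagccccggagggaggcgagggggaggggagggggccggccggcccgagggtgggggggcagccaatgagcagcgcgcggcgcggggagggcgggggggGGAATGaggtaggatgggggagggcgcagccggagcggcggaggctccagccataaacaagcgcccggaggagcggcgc
The core occurred in 12.64% of 32851 promoter windows in the table. Of 33 named called higher genes, 28 matched the table with 31 promoters, and 6 of those (19.4%) held it. The share among called lower genes was nearly the same: 16 of 22 genes matched with 21 promoters and 4 (19%) held it. A match is a description of letters and not a bound site. The AP-1 letters TGACTCA, also searched on both strands, were in 4.46% of all windows, in 1 promoter of the higher genes and in none of the lower. The palindromic cyclic AMP response element TGACGTCA was in 1.55% of all windows and in 2 promoters of the higher genes, those of Gpm6b and Mcam.

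**Figure D3:**
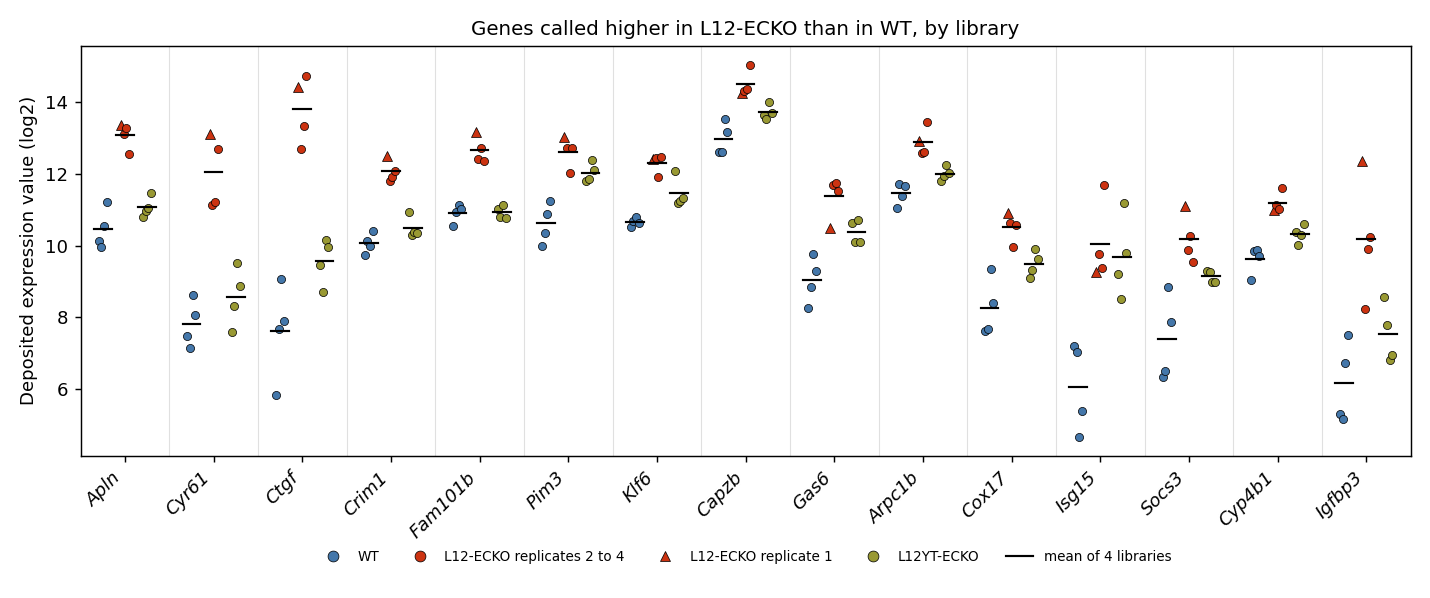
Deposited log2 values (y axis) of the 15 called higher genes with the smallest p in each of 12 libraries, with bars at group means and L12-ECKO replicate 1 as a triangle. All 4 L12-ECKO points of each gene lie above its 4 WT points, for example 12.55 to 13.37 against 9.96 to 11.23 for Apln.

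Several secreted signals of endothelial cells changed. Apln (chromosome X, 48025146 to 48034853, minus strand) encodes apelin, a peptide ligand made by sprouting endothelium and by aerocytes. It read 10.12, 9.96, 10.55 and 11.23 in WT and 13.37, 13.12, 13.27 and 12.55 in L12-ECKO, with clear separation and little scatter among the L12-ECKO libraries. The gene was 6.12-fold higher (log2 difference 2.61, SE 0.296, limma adjusted p = 0.000378). Edn1 (chromosome 13, 42301476 to 42307990, plus strand), which encodes the vasoconstrictor endothelin-1, read 10.72, 10.996, 10.95 and 10.17 in WT and 13.02, 12.04, 11.57 and 12.73 in L12-ECKO, with replicates 1 and 4 the highest. Its difference was 1.63 (limma adjusted p = 0.0285). Apln and Edn1 were the called members among 14 genes of the apelin, adrenomedullin, endothelin and nitric oxide systems, of which 6 were higher and 8 lower.

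Gas6 (chromosome 8, 13465374 to 13494490, minus strand), the gene of a ligand for the TAM family of receptor kinases, read 8.26, 8.86, 9.77 and 9.29 in WT and 10.50, 11.71, 11.76 and 11.53 in L12-ECKO. Replicate 1 was the lowest L12-ECKO library but still above every WT library. The difference was 2.33 (SE 0.367, limma adjusted p = 0.00542). Vegfa (chromosome 17, 46016993 to 46032369, minus strand), the gene of the principal angiogenic growth factor, moved the other way. It read 12.64, 13.62, 12.61 and 12.96 in WT and 11.60, 11.11, 12.04 and 12.06 in L12-ECKO, a fall by 1.25 (SE 0.277, limma adjusted p = 0.0481). In lung, Vegfa is also made by alveolar epithelium, whose summed marker level was given above, and the part of such cells in this difference was not tested. Vegfa was the only called gene of 14 in VEGF and angiopoietin signalling, where 7 were higher and 7 lower.

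Sema3c (chromosome 5, 17574281 to 17730268, plus strand), which encodes a secreted semaphorin, fell the most after Clic5. It read 11.18, 11.16, 10.31 and 10.14 in WT and 8.78, 8.84, 8.46 and 8.97 in L12-ECKO. The L12-ECKO libraries were close together and all lower. The fall was by 1.94 (SE 0.357, limma adjusted p = 0.0196), which makes the gene 3.83-fold lower. Plxna2 (chromosome 1, 194618218 to 194816869, plus strand), the gene of a plexin receptor for semaphorins, was higher: it read 8.98, 8.31, 8.997 and 8.75 in WT and 10.86, 10.78, 9.91 and 10.73 in L12-ECKO, a difference of 1.81 (limma adjusted p = 0.0481). The other 21 tested semaphorin, plexin, ephrin and slit genes were not called, and the 23 together split 11 higher to 12 lower.

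H19 (chromosome 7, 142575529 to 142578143, minus strand), an imprinted long noncoding RNA that is abundant before birth and declines afterwards, fell by 1.79 (SE 0.301, limma adjusted p = 0.00934). It read 13.19, 13.29, 13.70 and 12.42 in WT and 11.85, 11.32, 11.58 and 10.70 in L12-ECKO. The lowest WT library, replicate 4, still lay above the highest L12-ECKO library, replicate 1. In L12YT-ECKO it read 13.24, 13.25, 12.84 and 12.36, within the WT range except for replicate 4. Among 19 tested genes of the IGF system and imprinted growth control, H19 and Igfbp3 were the ones called, and 7 were higher and 12 lower.

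In a list of 44 actin and focal adhesion genes, 22 were higher and 22 lower, and Fam101b was the only one called. Fam101b (chromosome 11, 76019194 to 76027782, minus strand), now named Rflnb, encodes a filamin-binding protein and read 10.54, 10.94, 11.13 and 11.02 in WT and 13.17, 12.43, 12.73 and 12.36 in L12-ECKO. The groups were far apart, with a difference of 1.76 (SE 0.253, limma adjusted p = 0.00269). Further called genes that encode proteins of the cytoskeleton were not in that list and were grouped after their calls were seen, so no test of a group stands behind them. Capzb (chromosome 4, 139192899 to 139291818, plus strand), the β subunit of the filament capping protein, read 12.62, 12.62, 13.54 and 13.18 in WT and 14.27, 14.30, 14.38 and 15.05 in L12-ECKO, where replicate 4 stood above the rest. It rose by 1.51 (limma adjusted p = 0.00542). Arpc1b (chromosome 5, 145114215 to 145130705, plus strand), a subunit of the Arp2/3 complex that nucleates branched actin, read 11.05, 11.73, 11.39 and 11.67 in WT against 12.92, 12.59, 12.62 and 13.45 in L12-ECKO, a rise of 1.44 (limma adjusted p = 0.0117). Tmsb4x, whose product binds actin monomers, rose by 1.24 and Marcks, a membrane and actin-binding protein kinase C substrate, by 0.95 (limma adjusted p = 0.0487 and 0.0481).

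The called lower genes Rdx, Arhgef12, Wasf2 and Add3 were likewise grouped after their calls were seen. Rdx (chromosome 9, 52047173 to 52088735, plus strand) encodes radixin, which links actin to the plasma membrane. It read 14.60, 14.05, 14.18 and 13.50 in WT and 13.11, 13.03, 12.73 and 11.95 in L12-ECKO, a fall by 1.38 (SE 0.269, limma adjusted p = 0.0268). Arhgef12 (chromosome 9, 42963842 to 43107239, minus strand), an exchange factor that activates RhoA, read 12.57, 12.07, 12.01 and 11.90 in WT against 10.99, 10.71, 11.20 and 10.82 in L12-ECKO, a fall by 1.21 (limma adjusted p = 0.0327). The 4 L12-ECKO libraries of Arhgef12 were close together and below all WT libraries. Wasf2, which encodes the WAVE2 activator of Arp2/3, fell by 1.51, and Add3, which encodes γ-adducin of the membrane skeleton, by 1.16 (limma adjusted p = 0.0481 and 0.0481). Wasf2 ranged from 10.08 to 11.15 in WT and from 8.42 to 9.49 in L12-ECKO, and Add3 from 12.94 to 13.77 and from 11.68 to 12.72. L12-ECKO replicate 1 was the lowest of all for Add3, and without it 80.8% of the difference remained, the least of any called gene.

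**Figure D4:**
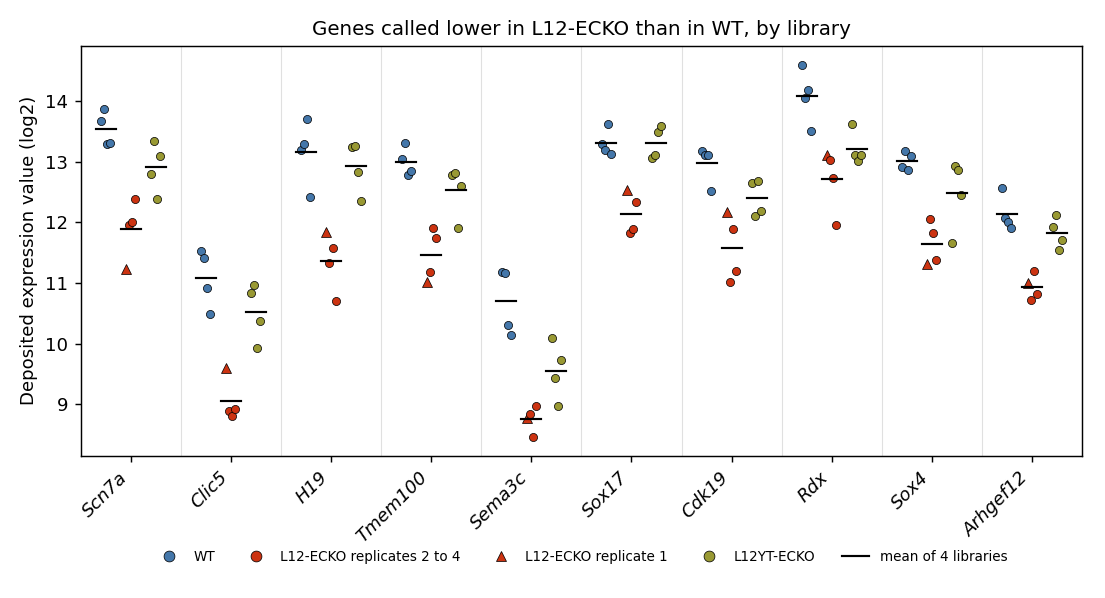
Deposited log2 values (y axis) of the 10 called lower genes with the smallest p in each of 12 libraries, with bars at group means and L12-ECKO replicate 1 as a triangle. All 4 L12-ECKO points of each gene lie below its 4 WT points, for example 8.81 to 9.60 against 10.50 to 11.52 for Clic5.

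Markers of lung capillary cells were mixed. Clic5 (chromosome 17, 44188584 to 44280172, plus strand), a chloride intracellular channel family gene, had the largest fall of any called gene. It read 11.52, 11.41, 10.92 and 10.50 in WT and 9.60, 8.90, 8.81 and 8.92 in L12-ECKO, a 4.08-fold difference (log2 -2.03, SE 0.336, limma adjusted p = 0.00839). Replicate 1 was the highest L12-ECKO library, so the other 3 gave a larger difference of -2.21. Scn7a (chromosome 2, 66673425 to 66784914, minus strand), a sodium channel family gene, read 13.67, 13.87, 13.30 and 13.30 in WT and 11.23, 11.96, 12.01 and 12.38 in L12-ECKO. Replicate 1 was the lowest here. The gene fell by 1.64 (SE 0.265, limma adjusted p = 0.00688). Both are known markers of aerocytes, and Clic5 is also expressed in alveolar epithelium, whose part in its fall was not tested.

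Other aerocyte markers did the reverse or did not pass. Cyp4b1 (chromosome 4, 115624725 to 115647723, minus strand), a cytochrome P450 gene, read 9.05, 9.85, 9.89 and 9.73 in WT and 11, 11.13, 11.03 and 11.62 in L12-ECKO, a rise of 1.57 (SE 0.295, limma adjusted p = 0.0238). Apln rose as described. Of 16 tested aerocyte markers, 2 were called higher (Apln and Cyp4b1), 2 were called lower (Scn7a and Clic5) and 12 were not called, with 5 higher and 11 lower in all and a median of -0.32.

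General capillary markers were mostly lower. Of 16 tested, 13 were lower. Sema3c, Hmcn1 and Cd93 were called lower, where 0.189% of all genes were. Hmcn1 (chromosome 1, 150562524 to 150993435, minus strand), which encodes the matrix protein hemicentin-1, read 11.22, 11.47, 11.41 and 10.995 in WT and 10.18, 10.30, 9.69 and 9.61 in L12-ECKO (difference -1.33, limma adjusted p = 0.0481). Cd93 (chromosome 2, 148436640 to 148443563, minus strand), the gene of an endothelial C-type lectin-like receptor, had the smallest called difference, -0.75, with very little scatter: it read 14.40, 14.62, 14.74 and 14.47 in WT and 13.88, 13.74, 13.81 and 13.80 in L12-ECKO (SE 0.163, limma adjusted p = 0.0481). The list's median was -0.61 and ran -0.47, -0.75, -0.48 and -0.83 over the L12-ECKO libraries. In L12YT-ECKO, compared with the same WT libraries, it was -0.40. 6 of the 16 were below WT in every library without overlap (37.5%, against 3.36% of all genes). Cd93 is also 1 of 26 pan-endothelial markers, of which 19 were lower and 1 was called.

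Arterial genes were likewise lower. Of 16 tested, 14 were lower and 2 higher, where 49% of all genes were higher, with a median of -0.82. 5 (31.25%) lay below WT without overlap, against 3.36% of all genes. 2 were called lower, against 0.189% of all genes. Sox17 (chromosome 1, 4490931 to 4497354, minus strand), a transcription factor of arterial fate, read 13.29, 13.19, 13.61 and 13.13 in WT and 12.54, 11.83, 11.89 and 12.33 in L12-ECKO. The L12-ECKO libraries were all lower, replicate 1 the least so. It fell by 1.16 (SE 0.224, limma adjusted p = 0.0268). Gja4 (chromosome 4, 127311421 to 127314039, minus strand), which encodes connexin 37, read 11.53, 11.60, 11.26 and 11.40 in WT against 10.04, 10.51, 10.44 and 9.30 in L12-ECKO, a fall by 1.37 (limma adjusted p = 0.0481). Sox17 and Gja4 averaged 13.31 ± 0.27 and 11.45 ± 0.39 in L12YT-ECKO against 13.30 ± 0.22 and 11.44 ± 0.15 in WT (SD, n = 4 each). Smooth muscle and pericyte markers, which accompany arteries, were also lower in L12-ECKO, as given above, and their part in these values was not tested. Venous and lymphatic markers split 5 higher to 6 lower of 11 and none was called (limma, 3 at an unadjusted p under 0.05). The most abundant of them, Lyve1, a lymphatic hyaluronan receptor, and Ephb4, a venous ephrin receptor, did not pass. Lyve1 read 11.50, 11.45, 11.83 and 11.94 in WT against 12.49, 11.92, 12.61 and 12.42 in L12-ECKO, and Ephb4 read 11.14, 10.82, 11.30 and 11.74 in WT against 11.55, 11.12, 11.77 and 12.26 in L12-ECKO.

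Tip cell and sprouting genes leaned upward. 12 of 19 tested were higher, against 49% of all genes. Apln, Igfbp3 and Mcam were called higher, where 0.292% of all genes were. Mcam (chromosome 9, 44134469 to 44142727, plus strand), the gene of the adhesion molecule CD146, read 12.57, 12.48, 12.38 and 12.68 in WT and 14.05, 13.30, 13.50 and 14.38 in L12-ECKO, with replicates 1 and 4 the highest. It rose by 1.28 (SE 0.249, limma adjusted p = 0.0268). 7 of the 19 (36.8%) lay above WT without overlap, against 2.97% of all genes. The list's median was 0.49.

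Notch, junction and matrix genes gave no calls. Of 14 Notch genes 5 were higher and 9 lower (limma, 3 at an unadjusted p under 0.05), and its most abundant members were the target genes Hes1 and Nrarp. Hes1 read 11.17, 11.46, 12.22 and 11.44 in WT against 11.24, 12.02, 12.06 and 10.95 in L12-ECKO, and Nrarp read 10.42, 10.54, 11.50 and 11.58 in WT against 12.32, 12.03, 12.22 and 11.21 in L12-ECKO. The 19 junction and barrier genes split 10 higher to 9 lower (limma, 4 at an unadjusted p under 0.05). Pecam1 and the tight junction gene Cldn5 overlapped in part or in full: Cldn5 read 14.33, 14.25, 14.11 and 14.56 in WT and 13.45, 14.33, 13.51 and 13.30 in L12-ECKO, and Pecam1 15.003, 15.13, 14.86 and 14.66 in WT against 15.05, 14.86, 14.69 and 14.50 in L12-ECKO. The 26 integrin and basement membrane genes split 13 to 13 (limma, 6 at an unadjusted p under 0.05), with Sparc at 16.18, 15.88, 16.02 and 15.88 in WT against 15.88, 15.88, 15.74 and 15.56 in L12-ECKO and the collagen gene Col4a1 at 14.17, 14.21, 14.15 and 13.68 in WT against 14.69, 13.80, 14.01 and 13.61 in L12-ECKO. Outside these lists, Bgn, which encodes the matrix proteoglycan biglycan, rose from a WT range of 11.02 to 11.26 to between 12.34 and 12.92 (difference 1.42, limma adjusted p = 0.0285).

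Transcription factors and signalling enzymes made up a further group. Klf6 (chromosome 13, 5861482 to 5870394, plus strand), a zinc-finger factor, read 10.53, 10.69, 10.80 and 10.63 in WT and 12.42, 12.44, 11.93 and 12.48 in L12-ECKO. WT libraries were within a narrow band and all L12-ECKO libraries lay above it. The rise was 1.66 (SE 0.256, limma adjusted p = 0.00542). Sox4 (chromosome 13, 28948919 to 28953713, minus strand) fell by 1.37 (SE 0.273, limma adjusted p = 0.0295), with 12.92, 13.17, 12.86 and 13.09 in WT and 11.31, 12.05, 11.82 and 11.37 in L12-ECKO. Mef2a, a MADS-box factor, ranged from 12.89 to 13.40 in WT and from 11.96 to 12.46 in L12-ECKO (difference -1.01, limma adjusted p = 0.0474). Trim24, a chromatin reader, fell by 1.63 (limma adjusted p = 0.0481). Among 17 endothelial transcription factors, Klf6 and Sox17 were called and 6 were higher and 11 lower.

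Among kinases and pathway inhibitors, Pim3 (chromosome 15, 88862186 to 88865726, plus strand), a serine/threonine kinase gene, read 9.996, 10.37, 10.87 and 11.25 in WT and 13.03, 12.73, 12.02 and 12.71 in L12-ECKO, a 4.01-fold rise (log2 2.003, SE 0.295, limma adjusted p = 0.0032). In L12YT-ECKO it read 11.80, 11.85, 12.40 and 12.11, also above every WT library. Socs3 (chromosome 11, 117966079 to 117970047, minus strand), a feedback inhibitor of cytokine signalling, was scattered in WT at 6.34, 6.51, 8.86 and 7.87 and higher in L12-ECKO at 11.11, 9.87, 10.26 and 9.55 (difference 2.80, SE 0.512, limma adjusted p = 0.0187). Sik1 (chromosome 17, 31844250 to 31855804, minus strand), a salt-inducible kinase gene, read 4.08, 5.91, 6.63 and 4.46 in WT and 9.06, 9.34, 8.12 and 8.002 in L12-ECKO (difference 3.36, limma adjusted p = 0.0481). Its L12YT-ECKO values of 9.47, 7.91, 7.47 and 6.98 were likewise above all WT values.

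Cdk19 (chromosome 10, 40339564 to 40483818, plus strand), a kinase of the Mediator complex, fell by 1.40 (SE 0.274, limma adjusted p = 0.0268), with 13.18, 13.10, 13.11 and 12.51 in WT and 12.16, 11.02, 11.89 and 11.20 in L12-ECKO. Rasa1 (chromosome 13, 85214780 to 85289130, minus strand), which encodes a GTPase-activating protein that switches off Ras and is needed for normal vessels, read 10.64, 10.21, 9.90 and 9.78 in WT and 8.01, 8.67, 8.53 and 8.62 in L12-ECKO. Replicate 1 was the lowest of all. It fell by 1.68 (SE 0.356, limma adjusted p = 0.0472), the only call among 17 Ras and cerebral cavernous malformation genes. Tmem100 (chromosome 11, 90030348 to 90036508, plus strand), a membrane protein gene that lies downstream of BMP9 and ALK1 signalling in endothelium, read 13.05, 13.31, 12.78 and 12.85 in WT and 11.02, 11.18, 11.90 and 11.74 in L12-ECKO. Its groups were well apart, with a fall by 1.54 (SE 0.264, limma adjusted p = 0.0112).

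Immediate-early genes were mostly higher. Of 19 tested, 17 were higher, against 49% of all genes. Klf6 and Sik1 were called higher, where 0.292% of all genes were. The median was 1.02, and 0.71 without L12-ECKO replicate 1, and over the 4 libraries it ran 1.42, 0.90, 0.07 and 0.92. Replicate 3 was thus at the WT level for the list as a whole. In L12YT-ECKO, compared with the same WT libraries, the list's median was 0.89.

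Interferon-stimulated genes were mostly higher. Of 26 tested, 25 were higher and 1 lower, where 49% of all genes were higher, with a median of 1.61. 3 were called higher, against 0.292% of all genes. Isg15 (chromosome 4, 156199424 to 156200818, minus strand), which encodes an interferon-induced ubiquitin-like protein, read 7.2, 7.04, 4.66 and 5.39 in WT and 9.27, 9.78, 9.39 and 11.71 in L12-ECKO. Replicate 4 was the highest and no library overlapped. It was 15.6-fold higher (log2 3.96, SE 0.691, limma adjusted p = 0.0167), and L12-ECKO replicate 1 alone differed by 3.20. Bst2 (chromosome 8, 71534255 to 71537456, minus strand), the gene of the antiviral membrane protein tetherin, read 10.12, 11.33, 11.86 and 11.57 in WT against 12.70, 13.33, 12.67 and 14.03 in L12-ECKO (difference 1.96, limma adjusted p = 0.0331). Psmb9 (chromosome 17, 34181987 to 34187764, minus strand), an immunoproteasome subunit gene, read 4.66, 6.42, 7.33 and 6.19 in WT against 8.52, 9.08, 8.72 and 9.07 in L12-ECKO (difference 2.70, limma adjusted p = 0.0481), and was also the only call among 16 genes of MHC class I presentation.

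Isg15 and Bst2 also stood above WT in the third group. Isg15 read 9.20, 8.52, 11.18 and 9.80 in L12YT-ECKO and Bst2 read 13.11, 12.82, 13.95 and 12.98, again above all WT libraries. Against the same WT libraries the L12YT-ECKO differences were 3.60 for Isg15 and 1.99 for Bst2 (limma adjusted p = 0.184 and 0.184), and the list's median was 1.82. Within L12-ECKO the list's median ran 1.502, 0.77, 1.49 and 2.80 above the WT means, highest in replicate 4. With the displaced rows as a covariate the list's median difference between L12-ECKO and WT became 0.90, and the calls of Isg15, Bst2 and Psmb9 were lost (limma adjusted p = 0.249, 0.37 and 0.459). Such a loss was common, as 11 of all 56 called genes kept their call in that fit.

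Promoters of Isg15 and Bst2 are shown because both hold repeats of the interferon-stimulated response element. The window of Psmb9, the third called gene of the list, held 0 matches. They are again the 250 bases before the start from RefSeq GRCm38.p6, on the gene's strand, with the matches in capitals. Isg15 lies at chr4:156200819-156201068, minus strand, where 3 overlapping matches begin 78, 72 and 66 bases before the start. Bst2 lies at chr8:71537473-71537722, minus strand, where 2 overlapping matches begin 130 and 124 bases before the start, next to a TEAD core left in lower case.
Isg15: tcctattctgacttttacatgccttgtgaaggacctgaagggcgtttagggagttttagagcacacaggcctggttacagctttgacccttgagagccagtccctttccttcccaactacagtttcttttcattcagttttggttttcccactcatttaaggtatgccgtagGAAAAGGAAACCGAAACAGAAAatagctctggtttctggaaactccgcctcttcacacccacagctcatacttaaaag
Bst2: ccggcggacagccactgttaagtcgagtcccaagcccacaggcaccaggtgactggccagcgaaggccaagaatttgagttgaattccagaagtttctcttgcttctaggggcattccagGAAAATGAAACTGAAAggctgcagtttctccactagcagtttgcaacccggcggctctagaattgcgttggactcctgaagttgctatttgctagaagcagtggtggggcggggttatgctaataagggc
The element, searched on both strands and counted with overlaps, was present in 2.98% of the 32851 windows, in 4 of 31 promoters of called higher genes (12.9%; Bst2, D17H6S56E-5, Edn1 and Isg15) and in 1 of 21 promoters of called lower genes (4.8%; Vegfa).

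In genes of NF-κB and inflammation L12-ECKO replicate 1 stood apart. 13 of 16 tested were higher, with a median of 1.22, but no gene was called (limma, 4 at an unadjusted p under 0.05). The list's median ran 3.52, 0.68, 0.03 and 1.69 above the WT means, and without replicate 1 it was 0.62. Replicate 1 also had the neutrophil transcripts described above, whose part in this value was not tested. The most abundant members were Nfkbia, an inhibitor of NF-κB, with 12.19, 12.13, 12.19 and 12.10 in WT and 13.77, 12.80, 12.32 and 12.62 in L12-ECKO, and the subunit gene Rela, with 9.76, 8.75, 8.96 and 9.72 in WT against 10.15, 10.03, 8.89 and 10.89 in L12-ECKO. Targets of p53 were also mostly higher, 16 of 20 with a median of 0.76, and none was called. Of these 20 targets, 8 rose and 2 fell with an unadjusted limma p below 0.05, where 6.31% and 5.91% of all genes did. Against the same WT libraries, the L12YT-ECKO median was 1.11 for the p53 targets and 0.92 for the NF-κB list. Both lists thus also stood above WT in the third group. Cdkn1a, a cell cycle inhibitor gene, read 9.85, 9.41, 11.22 and 11.10 in WT and 12.22, 11.90, 11.81 and 10.73 in L12-ECKO, and the apoptosis gene Bax read 10.78, 10.21, 9.93 and 10.57 in WT against 11.32, 11.75, 11.17 and 11.43 in L12-ECKO, without overlap (limma adjusted p = 0.407 and 0.116).

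Lists of the cell cycle, ribosome biogenesis, sterol synthesis and chaperones gave no calls. Of 29 DNA replication genes 12 were higher, of 26 mitosis genes 14, of 19 MYC and ribosome biogenesis genes 13, of 18 sterol synthesis genes 11 and of 23 chaperone genes 18, against 49% of all genes (limma, with 2, 4, 4, 5 and 1 at an unadjusted p under 0.05). Their medians were -0.14, 0.16, 0.20, 0.40 and 0.24. The replication median turned to 0.12 without L12-ECKO replicate 1. With the displaced rows as a covariate the mitosis and MYC medians turned to -0.11 and -0.015 and the sterol median became 0.16. The most abundant replication genes were Lig1, a DNA ligase gene with 13.02, 12.53, 12.77 and 13.04 in WT and 11.88, 12.83, 13.03 and 13.03 in L12-ECKO, and Uhrf1, a maintenance methylation factor gene with 11.61, 10.52, 11.21 and 11.89 in WT against 11.18, 10.33, 10.93 and 10.22 in L12-ECKO. Ccnd1, the cyclin D1 gene, read 13.52, 13.42, 13.51 and 13.98 in WT and 13.76, 14.27, 14.10 and 13.22 in L12-ECKO, and the centromere gene Cenpa read 11.55, 11.66, 12.50 and 10.90 in WT against 12.04, 12.24, 13.13 and 12.05 in L12-ECKO. Ncl and Npm1, 2 nucleolar protein genes, had means of 12.07 ± 0.15 in WT against 12.26 ± 0.18 in L12-ECKO and of 10.89 ± 0.46 in WT against 11.17 ± 0.42 in L12-ECKO (± SD, n = 4 libraries each). Hmgcs1, a sterol synthesis enzyme gene, had a mean of 10.72 ± 0.44 in WT against 11.03 ± 0.56 in L12-ECKO. The means of the chaperone genes Hspa5 and Pdia3 were 13.64 ± 0.26 in WT against 14.06 ± 0.34 in L12-ECKO and 12.59 ± 0.25 in WT against 13.18 ± 0.45 in L12-ECKO. All of these groups overlapped.

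**Figure D5:**
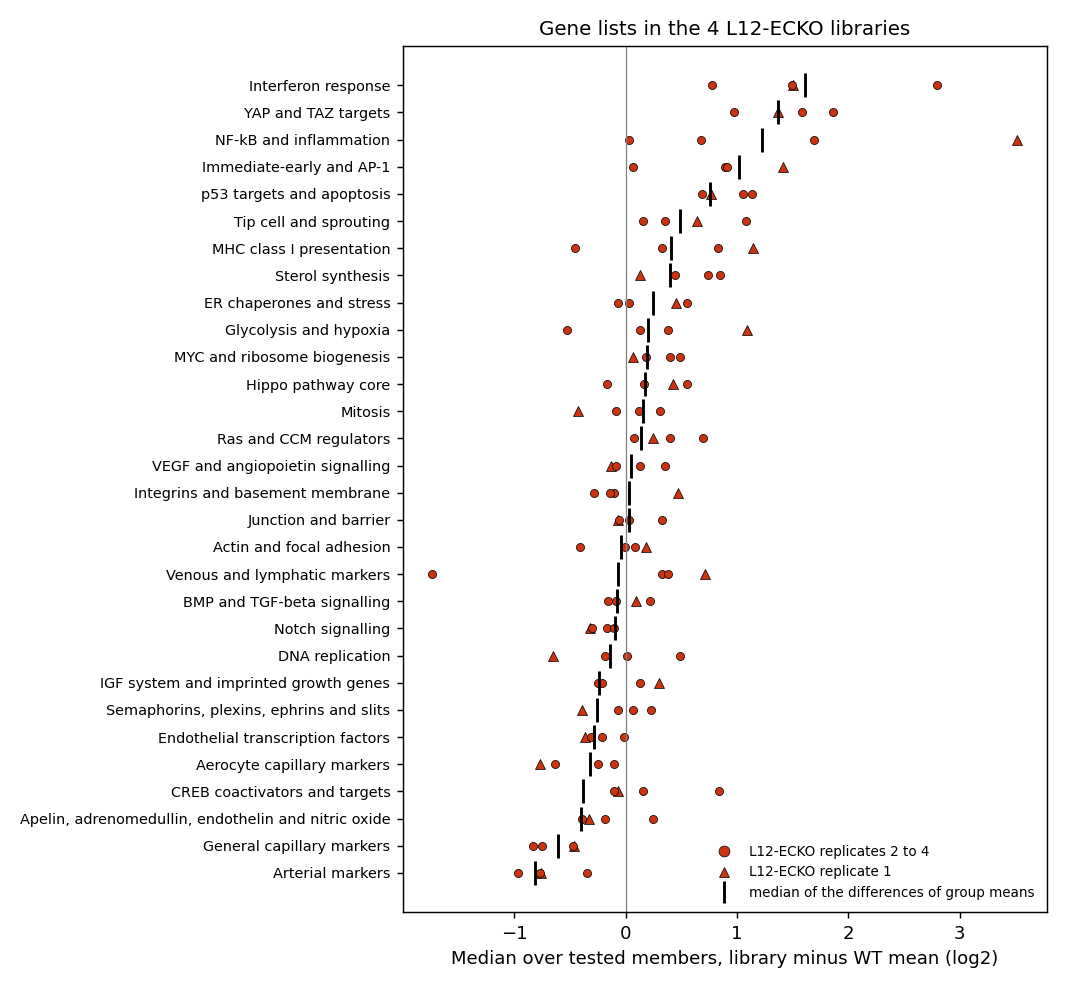
Median over the tested members of 30 gene lists, each L12-ECKO library minus the WT mean (x axis, log2), with L12-ECKO replicate 1 as a triangle and a bar at the median of the differences of group means. The YAP and TAZ targets run from 0.97 to 1.87 and the arterial markers from -0.96 to -0.35, and replicate 1 stands apart for NF-κB at 3.52.

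Some called genes belong to no list. Rims2 (chromosome 15, 39198261 to 39684372, plus strand), which encodes a scaffold of the presynaptic active zone, was listed at 0 in all 4 WT libraries and at 7.59, 7.41, 8.59 and 6.17 in L12-ECKO (limma adjusted p = 0.0268). In L12YT-ECKO it was listed at 0, 0, 0 and 0.86. No fold is given against a group at 0. Cox17 (chromosome 16, 38346991 to 38352763, plus strand), a copper chaperone for cytochrome c oxidase, read 7.61, 7.68, 9.35 and 8.41 in WT and 10.91, 10.64, 9.97 and 10.59 in L12-ECKO, a rise of 2.26 (SE 0.406, limma adjusted p = 0.0167). Ndufa1, a subunit of respiratory complex I, rose by 1.68, and Ddit4, an inhibitor of mTORC1, by 1.87 (limma adjusted p = 0.0474 and 0.047). Calu, a calcium-binding protein of the secretory pathway, rose by 1.05, the polarity gene Llgl1 by 1.42, the sphingomyelin synthase gene Sgms1 by 1.33, the membrane glycoprotein gene Gpm6b by 1.97 and D17H6S56E-5 by 1.52. Their limma adjusted p-values were 0.033, 0.0474, 0.0481, 0.0474 and 0.047. Among the lower genes, Gimap4, an immunity-associated GTPase gene, fell by 1.35, the ubiquitin ligase gene Rnf144a by 1.16 and Sft2d3 by 1.59 (limma adjusted p = 0.0481, 0.0474 and 0.047).

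The calls differed in how much they leaned on single libraries and on the technical split. 12 genes were called in each of the 12 fits that left out 1 library: Apln, Capzb, Clic5, Crim1, Ctgf, Cyr61, Fam101b, Gas6, H19, Klf6, Pim3 and Scn7a. The called count became 17, 15, 80 and 27 without WT replicates 1 to 4, and 24, 22, 36 and 32 without L12-ECKO replicates 1 to 4. It became 39, 33, 34 and 41 without L12YT-ECKO replicates 1 to 4, which lend only their spread to the comparison. Cd93, Gja4, Hmcn1, Marcks and Sft2d3 lost their call in each of those 12 fits. Adding the displaced rows as a covariate left 11 of the 56 called: Add3, Apln, Crim1, Ctgf, Cyr61, Fam101b, Igfbp3, Klf6, Pim3, Scn7a and Sgms1. All 56 had the same sign in that fit, with adjusted p-values up to 0.537. With sex as a covariate 13 of the 56 were called, and in L12-ECKO sex and the displaced rows cannot be told apart. The called higher genes Apln, Bgn, Ndufa1, Gpm6b and Tmsb4x lie on chromosome X. In the fit with sex, Apln stayed called, whereas Bgn, Ndufa1, Gpm6b and Tmsb4x did not (limma adjusted p = 0.122, 0.129, 0.146 and 0.189).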

How the data were processed

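RNA from sorted lung endothelial cells was extracted with Trizol and sequenced from Lexogen QuantSeq 3′ libraries on a NextSeq, per the labels' protocols. The submitters' processing notes name Bowtie2, edgeR and mm10 without versions or roles. The authors deposited 1 table per library with 24421 genes and a normalized log2 value for each. That the deposited log2 values were quantile normalized was worked out from their distributions, and depth is unknown.

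Of 24394 genes named alike in all 12 tables, 34 rows were left out: a block of 32 displaced by 1 row in 5 libraries, and Rn45s and Rn4.5s. Tested genes (11634) reached a CPM of 1 or more in 4 or more libraries, computed from the values raised from the log2 scale.

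limma 3.58.1 (R 4.3.3) fitted 1 mean per group over 12 libraries, with a trended, robust prior (statmod 1.5.0; 9 residual degrees of freedom, and 10.1 prior ones at the median). P-values were adjusted by Benjamini-Hochberg over all 11634 genes and called under 0.05. The fit was tested on simulated data. TMM scaling factors were computed from the values raised from the log2 scale.

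The members, the 42 gene lists (815 entries, 4 not in the tables) and the tests were chosen with earlier results of these data known. Every called gene is named except 1, which is not reported here. Values per library are given for the targeted genes, Ctgf, Cyr61, Ankrd1, the 15 higher and 10 lower genes with the smallest p, and called members of lists described or, where a list has none, its 2 most abundant members. Alternatives changed the fit, filter, scale, covariates and libraries. Promoters are from the RefSeq table, searched only before the start.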

Additional observations from a re-analysis of the deposited data

Results flagged for a closer look

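In 204 groups of 4 libraries (102 genes in 2 groups), 17 had 1 library apart from the other 3 by more than Dixon's 95% critical value. Chance alone gives this in about 1 in 20 groups.

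L12-ECKO replicate 4 was the highest of its group for the actin genes Capzb (15.05) and Tmsb4x (15.31) and for Gpm6b (12.72), and the lowest for Wwtr1 (10.11) and the alveolar marker Hopx (7.33). The other L12-ECKO libraries read 13.98 to 14.08 for Tmsb4x and 11.49 to 11.57 for Wwtr1, so the TAZ gene was low in 1 library only. L12-ECKO replicate 3 was the lowest for Klf6 (11.93) and Plxna2 (9.91) and the highest for Col1a2 (8.78), a fibroblast collagen gene. The 5 called higher genes among these, Capzb, Tmsb4x, Gpm6b, Klf6 and Plxna2, lay above WT in every library.

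L12-ECKO replicate 1 was the highest for Clic5 (9.60) and for Hp (12.56), the haptoglobin gene, which neutrophils also carry, and the lowest for the elastin gene Eln (14.17). Hp read 5.73 to 6.59 in the other L12-ECKO libraries. The neutrophil genes of that library were high as well, and their part in the Hp value was not tested.

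Among WT libraries, replicate 1 was the lowest for Amotl1 (11.69), replicate 2 for the myeloid lysozyme gene Lyz2 (listed at 0), and replicate 4 for Cdk19 (12.51), Col4a1 (13.68) and the platelet factor gene Pf4 (4.40). WT replicate 3 was the highest for Calu (13.74).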

How the results depend on the processing

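The count of 56 called genes (34 higher, 22 lower) ranged from 15 to 80 over the 12 fits that each left out 1 library, with 12 to 60 higher and 3 to 20 lower. It was 30 (21 higher, 9 lower; 28 among the 56) in a fit of the 8 libraries alone, and 27 (17, 10; 27) with a second logarithm. Without the filter on low values it was 21 (15, 6; 21), and without a trend in the prior variance 7 (4, 3; 4). TMM scaling gave 42 (33, 9; 41). The displaced rows as a covariate gave 15 (11, 4; 11), and sex as a covariate 15 (11, 4; 13). Without the libraries with displaced rows it was 49 (18, 31; 12), where L12-ECKO replicate 1 stands alone and is assumed to vary like the other groups. Without L12-ECKO replicates 1 and 3 together, an alternative chosen after seeing the data, it was 14 (10, 4; 13). A stricter filter, a floor at 5, median scaling and a prior that was not robust gave 51, 76, 54 and 46. The replicate block gave 43 (31, 12; 36). Same-numbered libraries did not deviate together (correlations -0.047 to 0.058), and 2 of 8 WT and L12-ECKO libraries correlated best with their own number. This check cannot show what, if anything, same-numbered libraries share.

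None of the 55 named called genes changed direction under any of these alternatives. 22 genes that were not called did, and the causes were not tested. Without the libraries that have displaced rows the value was 1.09 for Lats1, -2.15 for Ankrd1, 0.10 for Map4k4, 0.14 for Pecam1, 0.64 for Col4a1, -0.27 for Hmgcs1, 7.52 for S100a8, 8.90 for S100a9, 2.60 for Ly6c2, -0.002 for Eln, 1.53 for Pf4. Without L12-ECKO replicates 1 and 3 together the value was -0.26 for Yap1, 0.09 for Lig1, -0.081 for Npm1, -0.90 for Lyz2, 0.95 for Sftpc, 0.30 for Scgb1a1, -1.03 for Hp. With the displaced rows as a covariate the value was -0.44 for Ankrd1, 0.20 for Col4a1, -0.11 for Hmgcs1, -0.025 for Pdia3, 4.02 for S100a8, 5.72 for S100a9, 1.40 for Ly6c2, 0.38 for Col1a2, 1.58 for Pf4. With sex as a covariate the value was -0.87 for Ankrd1, 0.012 for Pecam1, 0.22 for Col4a1, 1.74 for S100a8, 3.73 for S100a9, 0.70 for Ly6c2, 0.33 for Col1a2, 0.078 for Itga2b. With TMM scaling the value was 0.07 for Hes1, 0.055 for Col4a1. With median scaling the value was 0.004 for Hes1. With values under 5 raised to 5 the value was 0.14 for S100a8, 0.40 for S100a9. Over the fits that each left out 1 library, the ranges of genes that turned were -1.14 to 1.03 for Ankrd1, -0.17 to 0.21 for Hes1, -0.24 to 0.12 for Col4a1, -0.26 to 0.12 for Lig1, -4.55 to 0.52 for S100a8, -4.10 to 1.09 for S100a9, -0.96 to 1.97 for Lyz2, -2.55 to 0.15 for Ly6c2, -0.86 to 0.22 for Sftpc, -0.67 to 0.12 for Col1a2, -0.78 to 1.496 for Hp. The medians of 11 of the 30 pathway lists, with medians of -0.14 to 0.20, changed sign with TMM scaling, either covariate or without L12-ECKO replicate 1, and so did those of the neutrophil and fibroblast markers. Larger medians could turn too. For the list of CREB coactivators and targets the median was -0.38, and it ran from -0.58 to 0.23 over the fits that left out 1 library. Depth is unknown, so low values, above all in L12-ECKO replicate 3, whose lowest value above 0 was 4.98, are the least precise.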

Other observations

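A further 52 genes, 34 higher and 18 lower, had limma adjusted p-values between 0.05 and 0.1. The genes named in this paragraph were chosen after their values were seen. Pdgfb, the endothelial ligand that recruits pericytes, was higher by 1.75 (limma adjusted p = 0.0737), the nuclear receptor gene Nr4a1 by 2.27 (0.0864), the Ras antagonist gene Spry1 by 3.62 (0.0903) and the phosphatase gene Dusp1 by 0.95 (0.0903). The difference was -1.11 for Tek, the angiopoietin receptor gene (0.078), -1.13 for the fatty acid translocase gene Cd36 (0.078) and -1.30 for Smad7, an inhibitor of TGF-β signalling (0.0965). Angpt2, the gene of the ligand angiopoietin-2, differed by 4.30 without overlap of the groups and did not pass (limma adjusted p = 0.147).

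Transcripts of liver genes were unevenly spread. Alb, the albumin gene, read 1.03, 9.01, 9.11 and 6.13 in L12-ECKO replicates 1 to 4 against 0, 5.22, 4.66 and 4.46 in WT. Ahsg, the fetuin-A gene, read 0, 9.96, 9.65 and 7.73 against 0, 4.03, 8.35 and 0. Both were high in the L12-ECKO libraries with displaced rows, and in L12YT-ECKO Alb read 3.50 and 4.62 in the libraries without displaced rows and 8.08 and 7.63 in those with them. With displaced rows as a covariate the median difference of 9 tested liver genes was 0.02, against 3.06 without it.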
